A study of Aix galericulata with 8 samples.

Results

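SURF6, MPHOSPH10 and KRR1 encode nucleolar proteins of ribosome assembly, and their average levels were read from deposited tables of growing male Mandarin duck sail feathers. They are the gene models that carry one of these 3 symbols in the table for the epithelium or the table for the pulp. These were 3 of 784 gene models in the epithelium table and 0 of 80 in the pulp table, which together hold 859 different gene models. The members were selected on measured values, because a gene model stands in a table only where the authors' own comparison of the vanes passed their p-value threshold. That they are listed is therefore how they were chosen and is not a result.

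RNA came from regenerating sail feathers of wild-type male ducks, collected in the breeding season about 4 weeks after plucking without any treatment. Follicles were dissected into epithelium, the keratinocyte layer that forms the barbs, and pulp, the mesenchymal core. The medial brown vane and the lateral blue vane were kept apart in both tissues. There are thus 4 groups of 2 libraries, 8 in all. The methods name 2 male birds as the source, so the 8 libraries do not come from 8 different birds. According to the methods, an adjacent flight feather was plucked as well; the labels mention no other feather than the sail feather and were followed.

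The nucleolus is where ribosomal RNA is transcribed, cut, modified and folded onto ribosomal proteins. The precursor of the small ribosomal subunit forms on the nascent transcript in a large particle, the small subunit processome, around the U3 small nucleolar RNA. The large subunit matures in a separate series of particles that pass through the nucleolus and nucleoplasm before export. Dividing cells need a steady supply of new ribosomes, and these factors are used in all cell types.

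The level is the authors' average of the read count of a gene model scaled to the size of its library (CPM) and pooled over libraries as a log2 value. Which libraries entered this mean is not stated, so an epithelium value may include pulp libraries. With 0 columns for single libraries in either table, depth and the spread between the 2 libraries of a group are unknown, so no error or interval can be given and each value below is 1 pooled mean. The medial brown and the lateral blue vane were not compared here, because the columns that hold the authors' own comparison of them were not used. Every gene model is listed because that comparison selected it, so a pooled mean may match the level in neither vane. CPM rises with transcript length, which is not at hand, so an order of CPM is an order of read share and not of transcripts per cell.

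SURF6, a basic protein of the nucleolar matrix whose yeast counterpart acts in the assembly of the large and the small subunit, had an average of 41.3 CPM (5.37 on the log2 scale). It is the gene model Mandarin_00968300, the sole one with this symbol. By read share, 63.4% of the gene models in the epithelium table lay at or below it and 287 lay above.

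MPHOSPH10, which binds the U3 small nucleolar RNA particle together with IMP3 and IMP4 and is phosphorylated in mitosis, had an average of 32.9 CPM (5.04 on the log2 scale). Its gene model is Mandarin_00727600, and 347 of the 784 gene models had a larger read share, which left 55.7% at or below it. IMP3 and IMP4 are not among the symbols of either table. Since 214 gene models listed for the epithelium and 23 listed for the pulp carry no symbol, a partner without a name could still be listed.

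KRR1, a KH-domain protein of the small subunit processome known from yeast, had the smallest read share of these 3 genes, with an average of 19.3 CPM (4.27 on the log2 scale). Its gene model is Mandarin_00998400, with 492 gene models above it and 37.2% at or below. SURF6 and MPHOSPH10 thus stood above, and KRR1 below, the table's median of 28.7 CPM. All 3 lay within the middle part of the table, between its lower quartile of 11.3 CPM and its upper quartile of 57.9 CPM, whereas the whole table runs between 0.748 and 5013 CPM.

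**Figure D1:**
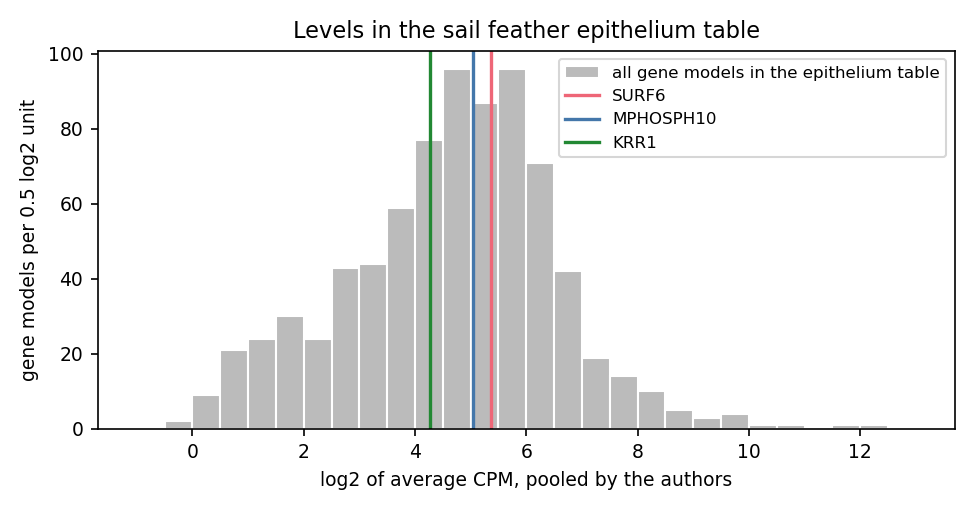
Histogram of the log2 average CPM of the 784 gene models in the epithelium table (x axis, log2 of the authors' pooled average CPM; y axis, number of gene models per bin), with a vertical line for each member. SURF6 at 5.37, MPHOSPH10 at 5.04 and KRR1 at 4.27 stand in the central part of the distribution.

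The identifiers of the 3 gene models are far apart, so none of them is the neighbour of another in the table. For KRR1 the identifiers directly before and after it, Mandarin_00998300 and Mandarin_00998500, are both in the epithelium table without a symbol, at averages of 9.90 and 19.7 CPM. What these models encode, and whether they overlap KRR1, was not examined because no annotation was at hand. Distances between identifiers are given in steps, 1 step being that from Mandarin_00998300 to Mandarin_00998400, the gene model of KRR1. Whether the order of identifiers follows positions in the genome was not checked either. Near MPHOSPH10 the closest listed identifiers were 14 steps before, an unnamed gene model at 49.1 CPM, and 4 steps after, TRPM3, a cation channel gene, at 69.7 CPM. Near SURF6 they were 11 steps before, HMCN1, a matrix protein gene, at 1.46 CPM, and 15 steps after, SARDH, a mitochondrial sarcosine dehydrogenase gene, at 28.9 CPM.

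Other genes of the same machinery were looked up from 4 lists of 136 symbols in all, written with earlier results of these data known. The epithelium table, with 784 gene models, holds 18 of the 136, the members included. The table for the pulp, with only 80 gene models, holds 0. Being listed means that the authors' comparison selected the gene, so these counts describe the tables and are not evidence about the pathway. The number of gene models that the authors tested was not determined here, so 18 of 136 cannot be read against the share of all tested gene models that were listed. The 18 genes had a median of 54.2 CPM, and averages that ran between 14.6 and 248 CPM. The table's median was 28.7 CPM over all gene models, 29.6 CPM over those with a symbol and 30.8 CPM with 1 gene model per symbol. Within the 18 genes, the median was 56.8 CPM for the large subunit part and 32.9 CPM for the small subunit part. All these medians cover only gene models that the authors' comparison selected, and differences between them were not tested. They do not show where ribosome assembly genes stand among all expressed genes.

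Of 55 listed factors of the small subunit processome and later small subunit assembly, 7 are in the epithelium table, with a median of 32.9 CPM, which is the value of MPHOSPH10 itself. Of these, UTP4, a WD-repeat protein that joins the particle early, averaged 85.9 CPM. RIOK1, a kinase of late small subunit maturation, averaged 65.2 CPM. NOP14, a processome protein, averaged 41.0 CPM, a read share close to that of SURF6 among the large subunit factors. ESF1 and NOL10, also nucleolar proteins of this branch, had smaller read shares than KRR1, at 15.8 and 14.6 CPM.

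Of 55 listed factors of large subunit assembly, where SURF6 was placed, 9 are in the epithelium table, with a median of 56.8 CPM. SURF6 had the second smallest read share among them, above NOL8 at 21.9 CPM. GTPBP4, a nucleolar GTPase, averaged 248 CPM. GNL3 (nucleostemin) and GNL2, related GTPases, averaged 117 and 56.8 CPM. RRS1, which brings the 5S RNA particle into the large subunit, averaged 63.1 CPM. RSL1D1, MYBBP1A and SDAD1 averaged 60.0, 56.7 and 51.7 CPM.

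Of 9 listed proteins of small nucleolar RNA particles, 2 are in the epithelium table. NOP58, a core protein of the box C/D particles, to which the U3 particle of MPHOSPH10 belongs, averaged 127 CPM, and NOLC1, a nucleolar phosphoprotein that accompanies these particles, averaged 29.8 CPM. Of 17 listed subunits and factors of RNA polymerase I and nucleolar organisation, 0 are in either table by symbol. The levels of these 17 are unknown, since a gene that is not in a table can have any level.

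**Figure D2:**
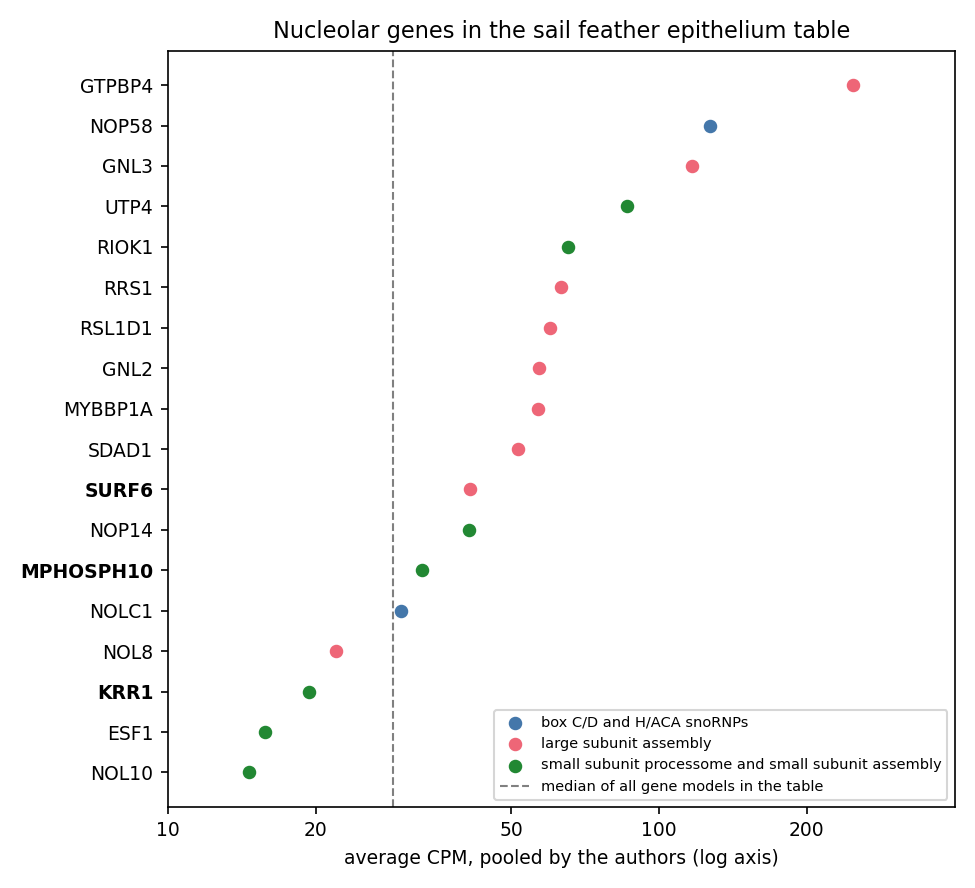
Average CPM (x axis, log scale, pooled by the authors) of the 18 listed ribosome assembly genes in the epithelium table. Genes are sorted by value and coloured by list, with the members in bold and the table median of 28.7 CPM as a dashed line. SURF6 (41.3 CPM) and MPHOSPH10 (32.9 CPM) lie to the right of the dashed line and KRR1 (19.3 CPM) to the left.

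The tissue labels could not be checked against defining markers. Of 7 markers of epithelium, among them keratin genes and TP63, and of 6 markers of pulp, among them collagen genes, 0 are in either table by symbol. A marker could still be among the 214 gene models listed for the epithelium and 23 listed for the pulp that carry no symbol. Markers that do not differ between the vanes would not be listed, whatever their level. In bulk tissue, a lower level of a gene can come from fewer cells that express it or from less RNA per cell, and these cannot be told apart.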

How the data were processed

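RNA of 8 libraries was sequenced by the authors, aligned with STAR 2.4.1d, counted with HTSeq 0.6.0, scaled with TMM and compared between vanes with edgeR. The study names a Mandarin duck reference genome; the assembly version and annotation release used for the RNA reads are not given in the sources used here. The deposited tables, 1 per tissue, give the log2 of the average CPM per gene model as the authors pooled it. Over which libraries is not stated, and the levels of gene models held by both tables were not compared to find out. The other 3 value columns (log2 fold change, p-value and FDR) hold the authors' own comparison of the medial brown with the lateral blue vane and were not used, so no difference between vanes was analysed here.

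Average CPM were computed as 2 to the power of the deposited log2 values. The place of a gene is the percentage of gene models in its table at or below its average CPM. The calculation of the place of a gene was tested on simulated numbers, and the other steps, the reported medians included, were not. Python 3.11.15, numpy 2.4.6, pandas 2.3.3 and matplotlib 3.10.9 were used. Named are the 3 members, every list symbol in a table and the nearest listed identifier on each side of a member. The members and lists were chosen with earlier results of these data known. Alternatives were other sets of gene models, a minimum of 1 CPM, the geometric mean and parts of the list. Levels per coding length were not computed, since no lengths were at hand.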

Additional observations from a re-analysis of the deposited data

How the results depend on the processing

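The place of each gene moved little with the set of gene models, but every set was a part of the same 784 gene models. Among gene models with a symbol, 62.8% lay at or below SURF6, 54.6% at or below MPHOSPH10 and 35.8% at or below KRR1. Among those of at least 1 CPM the shares were 63.3%, 55.6% and 37.1% for SURF6, MPHOSPH10 and KRR1. As 782 of the 784 gene models reach 1 CPM, this setting could hardly move the places. With 1 gene model per symbol, the one with the highest average CPM being kept, the shares were 61.1%, 52.7% and 34.5%. The median of 54.2 CPM over the 18 listed ribosome assembly genes was 56.8 CPM without the members and 48.4 CPM as a geometric mean. It was 32.9 CPM in the small subunit part (7 genes) and 56.8 CPM in the large subunit part (9 genes). These parts hold fewer genes by construction. The planned level per coding length was not run, as no lengths were at hand. No paired analysis was possible because the tables hold no value per library, and for the same reason leaving out a library was not possible. Depth is unknown, so the precision of a level of 19.3 CPM against one of 41.3 CPM cannot be stated.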
